A study of Mus musculus with 2 samples.

Results

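The miR-181 family comprises 6 microRNA genes in the mouse, Mir181a-1, Mir181a-2, Mir181b-1, Mir181b-2, Mir181c and Mir181d, which were chosen by name. All 6 had a row among the 1973 microRNA genes of the deposited tables. MicroRNA sequencing had read fragments under 30 nt from kidneys of healthy B6NCrl mouse embryos of both sexes, pooled at embryonic day 16.5. There was 1 group with 2 libraries, biological replicates 2 and 1. Replicate 2 was made from 41 embryos, while the labels do not say how many were pooled for replicate 1. Both carry the same donor record in the labels, so the spread between them may be partly technical. Since whole kidneys were pooled, fewer cells of a type and less of a microRNA per cell cannot be told apart.

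A microRNA gene is transcribed as a longer RNA from which a hairpin precursor is cut. Dicer then releases a duplex of a 5p and a 3p arm, and the arm kept by an Argonaute protein pairs with messenger RNAs mainly through its seed, bases 2 to 8. The miR-181 family is best known from lymphocytes: in mouse thymus miR-181a raises the sensitivity of T-cell receptor signalling by lowering phosphatases. Its genes lie in pairs at 3 loci that arose by duplication, each with 1 gene of the a or c type and 1 of the b or d type.

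The mature arms are shown because what distinguishes the genes decides which reads can be assigned to them. RefSeq lists 12 arms for the 6 genes on GRCm38.p6, and 10 of these sequences are distinct. In the 5p arms below, capitals mark the seed, which was ACAUUCA in all 6 genes. No other mouse microRNA among the 1738 mature entries of the RefSeq table carried it.
miR-181c-5p, chr8:84178924-84178945, minus strand: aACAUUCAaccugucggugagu
miR-181d-5p, chr8:84178759-84178781, minus strand: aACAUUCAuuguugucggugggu
miR-181a-5p, chr2:38852741-38852763 and chr1:137966468-137966490, plus strand: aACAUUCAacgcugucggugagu
miR-181b-5p, chr2:38853845-38853868 and chr1:137966650-137966673, plus strand: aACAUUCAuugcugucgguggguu

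The 5p arms differ only behind the seed. Counted from 1 at the 5′ end of the first arm named, miR-181a-5p and miR-181b-5p differ by A9U, C10U and A21G over 23 nt. A single substitution, C12U, sets miR-181b-5p apart from miR-181d-5p, and miR-181c-5p equals miR-181a-5p without the G at position 11.

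The 3p arms, in contrast, had 4 different seeds, again in capitals. The arms of Mir181c and Mir181a-1 share CCAUCGA, those of Mir181b-2 and Mir181b-1 share UCACUGA, and those of Mir181d and Mir181a-2 have seeds of their own.
miR-181c-3p, chr8:84178885-84178906, minus strand: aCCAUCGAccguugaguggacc
miR-181d-3p, chr8:84178720-84178740, minus strand: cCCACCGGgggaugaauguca
miR-181a-2-3p, chr2:38852785-38852806, plus strand: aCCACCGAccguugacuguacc
miR-181b-2-3p, chr2:38853883-38853904, plus strand: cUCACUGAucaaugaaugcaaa
miR-181a-1-3p, chr1:137966508-137966529, plus strand: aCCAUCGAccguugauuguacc
miR-181b-1-3p, chr1:137966690-137966710, plus strand: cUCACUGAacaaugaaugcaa

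The genes named with 1 and 2 make the same 5p arm from separate chromosomes. A read that matches both places equally well is counted in no gene, because the tables keep reads that map to several places in a row of their own. The run common to both precursors is shown with the first differing base on each side in capitals, since only reads that reach beyond it, or reads of other parts of the hairpin, carry a distinguishing base. It is 28 nt long around miR-181a-5p and ends 4 bases behind the arm, whereas around miR-181b-5p it is 26 nt long and ends with the arm itself.
Mir181a-2, chr2:38852739-38852768, plus strand: GgaacauucaacgcugucggugaguuuggG
Mir181a-1, chr1:137966466-137966495, plus strand: UgaacauucaacgcugucggugaguuuggA
Mir181b-2, chr2:38853842-38853869, plus strand: CucaacauucauugcugucgguggguuU
Mir181b-1, chr1:137966647-137966674, plus strand: AucaacauucauugcugucgguggguuG

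None of the 18-nt stretches of miR-181a-5p and miR-181b-5p belongs to 1 gene alone among the 2202 microRNA precursors of GENCODE M21. The 18-nt stretches of miR-181c-5p, miR-181d-5p and all 6 of the 3p arms occurred in no other precursor. Along the whole hairpin, 84.3% of the 18-nt stretches of Mir181a-1, 81.4% of those of Mir181a-2, 85.7% of those of Mir181b-1 and 87.5% of those of Mir181b-2 occurred in no other precursor, and all 55 of Mir181d did. The hairpin of Mir181c was not used here. The levels of Mir181a-1, Mir181a-2, Mir181b-1 and Mir181b-2 therefore leave out reads that lie within the shared run. They are lower limits only if no read was assigned to the wrong copy, which was not tested. The levels of Mir181c and Mir181d can include both arms. The tables give 1 count per gene, so 5p and 3p reads are not separated.

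The family as a whole held just under 1% of the reads assigned to microRNA genes. It took 0.934% (exact Clopper-Pearson 95% interval 0.927 to 0.942) of 7128703 reads in replicate 2 and 0.876% (0.869 to 0.884) of 5317669 reads in replicate 1, or 0.905% ± 0.0410 (SD, n = 2). These were 66615 reads in replicate 2 and 46605 reads in replicate 1. All 6 genes reached 1 CPM (count per 1000000 reads assigned to microRNA genes) in both libraries, as 387 of the 1973 genes did. Not a single read fell on the strand opposite to any of the 6 genes in either library. Reads mapping to several places, among which the shared 5p arms would be, numbered 3718198 in replicate 2 and 3323410 in replicate 1 over all sequences. How many of them belong to miR-181a or miR-181b is not given in the tables.

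The pair on chromosome 8 stood highest. Mir181c, at chr8:84178873-84178961 on the minus strand of mm10, reached 3997 CPM in replicate 2 and 3889 in replicate 1 (mean 3943 ± 76.2 CPM, SD, n = 2). It was the gene of rank 36 among the 1973. Mir181d, which begins 85 bases further along that strand at chr8:84178716-84178787, reached 3122 CPM in replicate 2 and 2792 in replicate 1 (mean 2957 ± 234 CPM, rank 48). Both lie in an intron of Nanos3, on its strand. Nanos3 encodes an RNA-binding protein known from germ cells. Mir181c exceeded Mir181d in both libraries, by 1.28-fold in replicate 2 and 1.39-fold in replicate 1.

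At the chromosome 2 locus more reads were assigned to the b gene than to the a gene. Levels here and on chromosome 1 leave out reads within the shared runs, so which gene of a locus makes more is not known. Mir181b-2, at chr2:38853830-38853918 on the plus strand, reached 929.6 CPM in replicate 2 and 591 in replicate 1 (mean 761 ± 239 CPM, SD, n = 2, rank 89). Its neighbour Mir181a-2, at chr2:38852735-38852810 and 1019 bases upstream, had 64.5 CPM in replicate 2 and 64.9 in replicate 1 (mean 64.7 ± 0.248 CPM, rank 193). Both are antisense to introns of Nr6a1, an orphan nuclear receptor gene, and Mir181b-2 is also antisense to an exon of the unclassified transcript Gm44144. In CPM on library totals, before the TMM scaling used further down, Mir181a-2 was the member whose level differed least between the libraries. Its log2 difference of -0.008 lay within its counting error of 0.10. Mir181b-2 had the largest SD of the 6 in CPM, but on the log2 scale Mir181b-1 differed more, at 0.72 against 0.65.

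At the chromosome 1 locus the order of the assigned reads was the other way round. Mir181a-1, at chr1:137966455-137966541 on the plus strand, reached 1213 CPM in replicate 2 and 1416 in replicate 1 (mean 1314 ± 143 CPM, SD, n = 2, rank 70). Mir181b-1, at chr1:137966639-137966718 and 97 bases downstream, was the lowest member, with 18.2 CPM in replicate 2 (exact 95% interval 15.2 to 21.7) and 11.1 CPM in replicate 1 (8.45 to 14.3). These levels rested on 130 reads in replicate 2 and 59 reads in replicate 1, and their mean of 14.7 ± 5.05 CPM gave rank 256. Both genes overlap an exon of the long non-coding RNA A430106G13Rik and an intron of the host transcript Gm4258 on the same strand, and an intron of Gm26936 on the opposite strand.

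**Figure D1:**
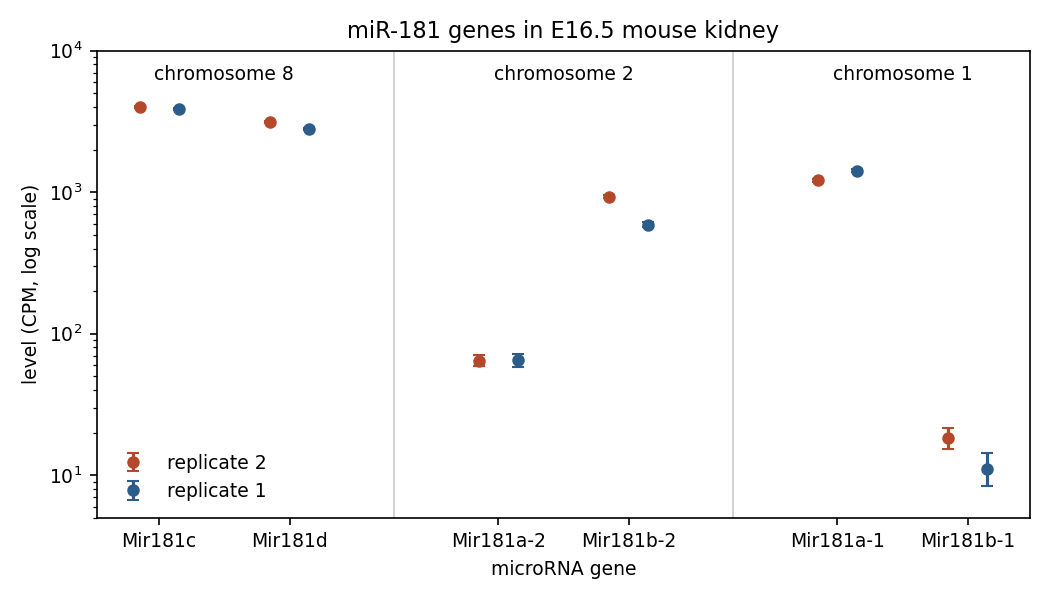
Level of each miR-181 gene in CPM on a log axis, grouped by chromosome, in replicate 2 and replicate 1. Points are single libraries and bars are exact 95% intervals of the read count. Mir181c and Mir181d lie between 2792 and 3997 CPM. The gene with more assigned reads is Mir181b-2 on chromosome 2 but Mir181a-1 on chromosome 1, where reads within the shared runs are left out at both loci.

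In assigned reads the order of the levels was thus Mir181c, Mir181d, Mir181a-1, Mir181b-2, Mir181a-2 and Mir181b-1, and it was the same in both libraries. Genes at 100 CPM or more had a pooled replicate SD of 0.22 on log2(CPM + 1), so that means at least 1.34-fold apart, the two-sided 95% range of this SD, differed by more than the replicate spread. The smallest p that 2 libraries allow in a two-sided exact sign-flip permutation test is 0.5, which each fold below had. The neighbours Mir181c and Mir181d lay just within that spread, with a log2 ratio of 0.42 ± 0.09 (SD, n = 2) against a limit of 0.43, although Mir181c was the higher in each library. The next step, Mir181d over Mir181a-1, was 2.57-fold in replicate 2 and 1.97-fold in replicate 1. Mir181a-1 stood 1.30-fold above Mir181b-2 in replicate 2 and 2.39-fold in replicate 1. The mean of that step, 1.77-fold, was past the limit, but replicate 2 alone was not. Its log2 ratio of 0.82 ± 0.62 (SD, n = 2) varied widely, and the limit does not account for pairing within a library. The lower steps were wider, with Mir181b-2 14.4-fold above Mir181a-2 in replicate 2 and 9.12-fold in replicate 1, and Mir181a-2 3.54-fold above Mir181b-1 in replicate 2 and 5.85-fold in replicate 1. Mir181a-2 and Mir181b-1 lie under 100 CPM, where the spread was not measured and may be wider than the value used here. The limit is one for means of 2 libraries, and a ratio within a single library spreads more.

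Summed over its 2 genes, the Mir181c/d cluster held 76.2% ± 0.0340 of the reads assigned to the family (SD, n = 2), with 76.2% in replicate 2 and in replicate 1. Reads within the shared runs of the a and b genes are not counted here, so its share of all miR-181 reads may be smaller. The chromosome 2 cluster held 10.6% in replicate 2 and 7.49% in replicate 1, and the chromosome 1 cluster held 13.2% in replicate 2 and 16.3% in replicate 1. Among assigned reads the share of the chromosome 8 pair was therefore nearly constant. The chromosome 2 locus had its larger share in replicate 2, and the chromosome 1 locus its smaller. In CPM the sums averaged 6900 ± 309.7 for Mir181c/d, 825 ± 239 for Mir181a-2/b-2 and 1329 ± 138 for Mir181a-1/b-1.

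The Mir181c/d cluster stood 5.78-fold above the Mir181a-1/b-1 cluster in replicate 2 and 4.68-fold in replicate 1, a log2 ratio of 2.38 ± 0.22 (SD, n = 2). Over the Mir181a-2/b-2 cluster it stood 7.16-fold in replicate 2 and 10.2-fold in replicate 1, a log2 ratio of 3.09 ± 0.36. Both ratios exceeded the replicate spread of 0.43 in each library. Between the highest genes of the clusters, in place of the sums, they were smaller, at 1.59 and 2.41. The Mir181a-2/b-2 cluster lay below the Mir181a-1/b-1 cluster, at 0.807 of its level in replicate 2 and 0.46 in replicate 1, a log2 ratio of -0.71 ± 0.57 that in replicate 2 alone (-0.31) lay within the spread. These folds compare genes whose 5p reads can be counted with genes whose 5p reads are left out. How much of the distance this makes up was not tested. Since the reads are whole small RNAs, no division by length was needed. Per base of precursor the log2 ratios, an alternative chosen after the data were seen, were 2.48, 3.21 and -0.73.

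The ratio of the neighbouring genes shifted between the libraries, while that of the b copies on separate chromosomes moved less than its counting error. Mir181b-2 stood 51.0-fold above Mir181b-1 in replicate 2 and 53.3-fold in replicate 1, a log2 difference of -0.06 with a counting error of 0.23. Mir181a-1 stood 18.8-fold above Mir181a-2 in replicate 2 and 21.8-fold in replicate 1, a difference of -0.21 with a counting error of 0.11. By comparison, Mir181b-2 over its neighbour Mir181a-2 moved by 0.66 with a counting error of 0.11. Mir181a-1 over its neighbour Mir181b-1 was 66.5-fold in replicate 2 and 128-fold in replicate 1, a difference of -0.94 with a counting error of 0.23. Mir181c over Mir181d differed by -0.12 with a counting error of 0.02. These ratios are taken within a library and do not depend on scaling. The counting errors cover reads only, and with 1 library on each side the differences have no replicate check.

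**Figure D2:**
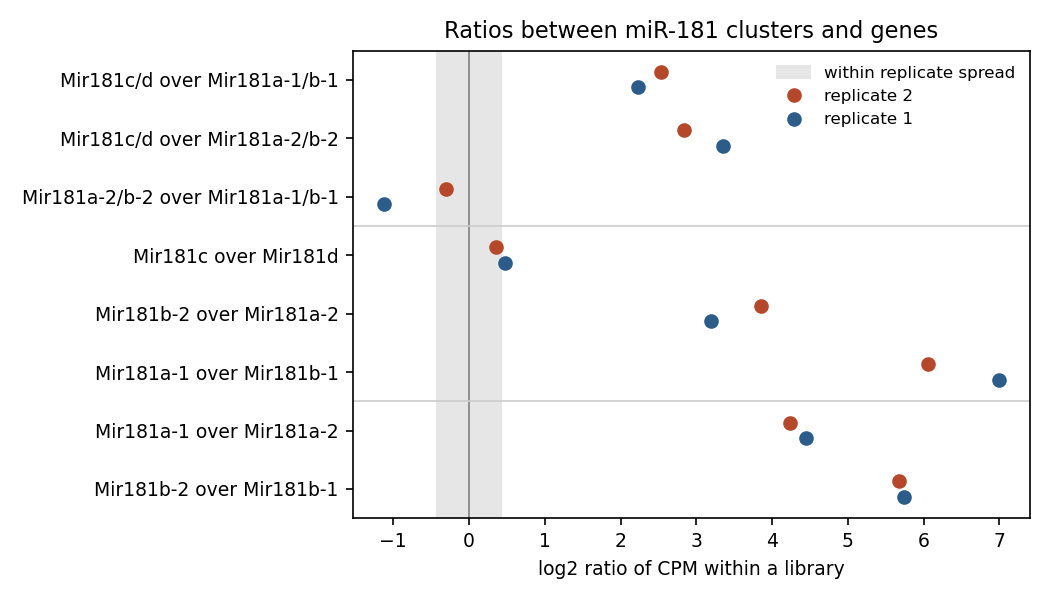
Log2 ratio of CPM within replicate 2 and within replicate 1 for the 3 pairs of clusters (top), the neighbours at a locus (middle) and the copies on separate chromosomes (bottom). The grey band is the replicate spread of 0.43 on either side of 0, a limit for means of both libraries that is too narrow for single ones. The b copies give 5.67 and 5.74, whereas Mir181a-1 over Mir181b-1 gives 6.06 and 7.00.

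MicroRNAs that the mouse makes from 2 gene copies, miR-181a and miR-181b among them, set these distances in context. Of a list of 20 such pairs, 16 had both rows and a higher copy of at least 10 CPM. Each of the 16 shared at least 1 mature arm in RefSeq. Both miR-181 pairs are among the 16, so the median and the range below are not independent of them. On log2(CPM + 1), which lowers the folds of genes with few reads, the median fold of the higher over the lower copy was 6.99. Mir181b-2 over Mir181b-1 had the widest mean of the 16 pairs at 48.7-fold, closely followed by Mir196a-2 over Mir196a-1 at 47.0-fold, which was the wider of both in replicate 2. The pair Mir181a-1 over Mir181a-2 had rank 5 at 20.0-fold. The narrowest was Mir125b-1 over Mir125b-2 at 1.20-fold. Copy pairs in this kidney thus ranged from near equality to 48.7-fold, or to 47.0-fold without the miR-181 pairs. In all 16 pairs, reads that match both copies equally are left out of both.

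**Figure D3:**
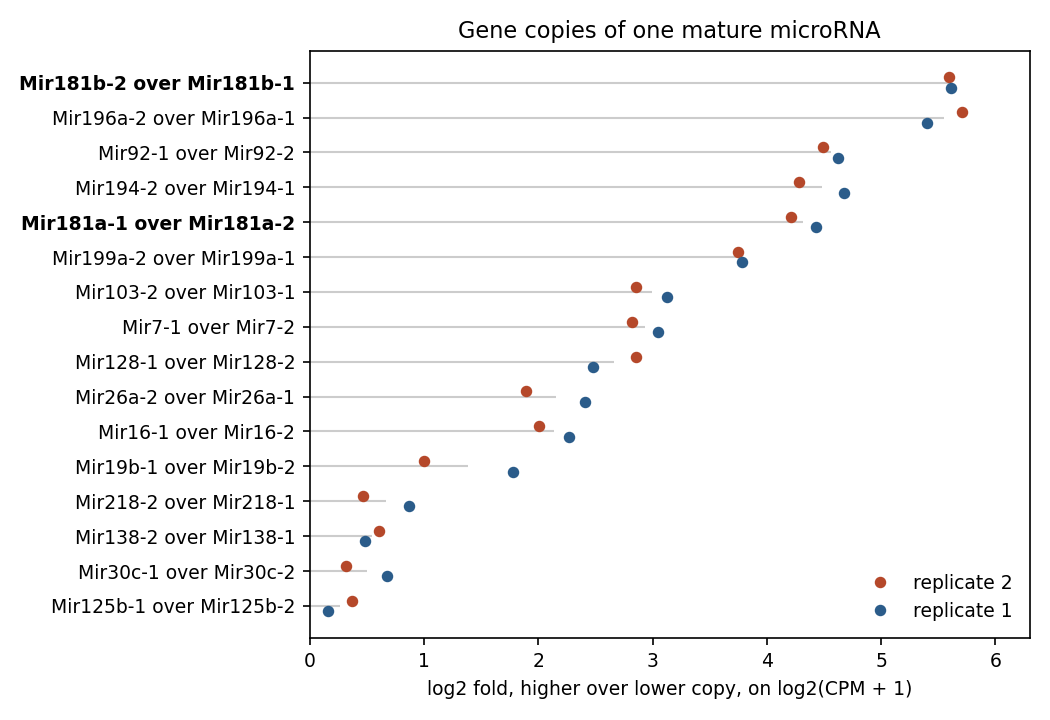
Log2 fold of the higher over the lower gene copy for 16 pairs, on log2(CPM + 1), in replicate 2 and replicate 1; grey lines run to the mean. The miR-181 pairs, in bold, stand at 48.7-fold and 20.0-fold against a median of 6.99-fold over all 16 pairs, with the miR-181 pairs included.

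The libraries were then compared gene by gene, as log2 of replicate 2 over replicate 1 with TMM scaling, in an exact conditional binomial test over the 455 genes with at least 10 reads summed. This test counts reads and compares these libraries, not conditions. In all, 33.6% of the 455 genes had a Benjamini-Hochberg adjusted p under 0.05, 15.8% higher and 17.8% lower in replicate 2. All 6 members were tested and 4 passed, of which 2 were higher and 2 lower. With many reads even a small ratio passes: Mir106b, with 46178 reads in replicate 2 and 30486 in replicate 1, passed at 0.03. The share over all genes also covers genes with few reads, so it is not matched to the members in depth. The median log2 ratio was -0.04 over the members and 0.02 over all genes tested.

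Both b genes were higher in replicate 2. Mir181b-2 had 6627 reads in replicate 2 and 3145 in replicate 1, or 0.51 on the log2 scale (counting error 0.03, adjusted p = 9.0e-61, exact binomial test). Among the 181 genes that averaged 100 CPM or more, 1 had a higher ratio. Mir181b-1 had the larger ratio but few reads, at 0.57 with a counting error of 0.23 (adjusted p = 0.0367, exact binomial test).

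Of the a genes, Mir181a-1 lay on the other side. It was lower in replicate 2 at -0.37 with a counting error of 0.02 (adjusted p = 1.4e-56, exact binomial test), and 6 of those 181 genes had a lower ratio. Mir181a-2 stood at -0.15 with a counting error of 0.10 and did not pass (adjusted p = 0.289, exact binomial test).

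The c and d genes were close to even, and their direction depends on the scaling. Mir181c stood at -0.10 with a counting error of 0.01 (adjusted p = 3.2e-14, exact binomial test) with TMM, but at 0.04 when library totals were used. Mir181d stood at 0.02 with a counting error of 0.02 (adjusted p = 0.408, exact binomial test). With totals, the median of all genes moved to 0.16, by the TMM shift of 0.14, and 4 members passed as higher and 1 as lower, against 78.8% higher among all calls. Both b genes stayed higher and Mir181a-1 stayed lower under TMM, library totals and DESeq2 size factors.

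None of the 6 genes passed once a spread between pools was allowed for. In the edgeR exact test with a biological coefficient of variation of 0.2, 3 of the 455 genes (0.659%) had an adjusted p under 0.05 and no member did. At an unadjusted p under 0.05, 3.96% of the genes passed, and again no member. The value of 0.142 was estimated over all genes from these same libraries, so the differences under test set the spread and few genes could pass. With it, 4 genes (0.879%) passed after adjustment and 5.93% before it, with 0 of the 6 members in either count. The smallest unadjusted p there was 0.0817, for Mir181b-2 (adjusted p = 0.979, edgeR exact test).

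**Figure D4:**
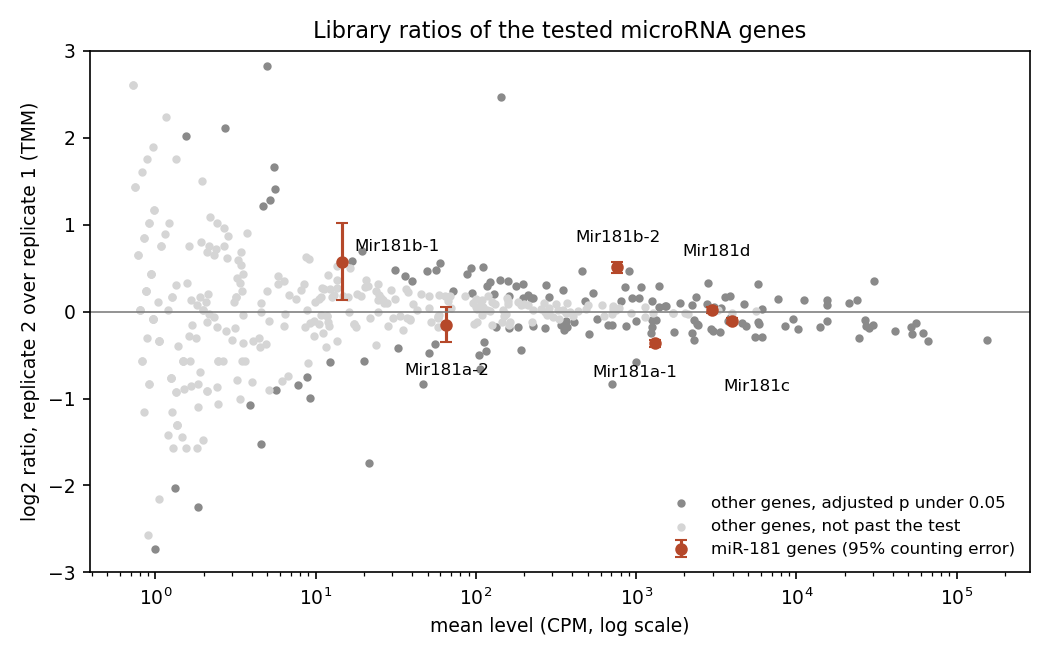
Log2 ratio of replicate 2 over replicate 1 with TMM scaling against mean CPM on a log axis, for the miR-181 genes (bars: 95% counting error) and the other tested genes; 1 gene beyond the axis and 1 with no read in a library are left out. Mir181b-1 (0.57) and Mir181b-2 (0.51) lie above 0, Mir181a-1 (-0.37) below it, and Mir181c and Mir181d close to it.

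Markers of cell types in which miR-181 or other microRNAs are abundant were read beside these ratios, since the lymphocyte is the best known source of miR-181. The leukocyte list summed to 3916 CPM in replicate 2 and 2918 in replicate 1. Of its 6 genes 4 had a row under the listed name, of which 2 were higher and 0 lower in replicate 2. Among all tested genes 15.8% were higher and 17.8% lower. It was led by Mir342 with 3252 CPM in replicate 2 and 2352 in replicate 1 (log2 ratio 0.32). Mir142 and Mir146a had no row under those names. The gene of miR-146a is annotated as Mir146, with 131 CPM in replicate 2 and 135 in replicate 1. Mir146 was lower in replicate 2 (log2 ratio -0.18, adjusted p = 0.0436, exact binomial test). It is left out of the sums and counts given for the list. The erythroid list summed to 434 CPM in replicate 2 and 313 in replicate 1, with 2 of 3 genes higher and 0 lower, led by Mir451a (0.30). With library totals 4 leukocyte and 2 erythroid genes were higher, while 152 of all 455 tested genes were higher and 41 lower. Whether these cells have a part in the ratios of the b genes was not tested.

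In the other lists no gene passed as higher with TMM, but their direction depends on the scaling. The kidney epithelium list, the miR-200 family, was measured in full and summed to 26770.4 CPM in replicate 2 and 26285 in replicate 1, with 0 of 5 genes higher and 4 lower, led by Mir429 (-0.10). The endothelial list summed to 51997 CPM in replicate 2 and 53015 in replicate 1, with 0 of 3 higher and 1 lower, Mir126a (-0.17). The neuronal list summed to 595 CPM in replicate 2 and 577 in replicate 1, with 1 of 6 tested genes lower, and was led by Mir132 (-0.02), with Mir124a-2 and Mir124a-3 at 0. The muscle list summed to 295 CPM in replicate 2 and 275 in replicate 1, almost all from Mir206 (-0.04), with Mir1a-1, Mir133a-1 and Mir133a-2 at 0. With library totals the epithelial list had 2 genes higher and 0 lower, and the neuronal list 2 higher and 1 lower. The endothelial list then had 1 higher and 1 lower, and the muscle list none past the test. Among all 455 tested genes, 152 were higher and 41 lower with library totals. The binomial calls of the lists, like those of the members, were lost in the edgeR exact test with a coefficient of 0.2 or the estimated one. No gene matched by name to the 6 lists had an unadjusted p under 0.05 there. The estimated coefficient was itself taken from the differences between these libraries.

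Genes of similar level over the 2 libraries were named by distance on log2(CPM + 1). Nearest to Mir181c were Mir139 (distance 0.026) and Mir22 (0.058). Nearest to Mir181a-1 were Mir369 (0.16) and Mir467e (0.17). Mir181b-2 had no gene so close, with Mir503 at 0.31 and Mir483 at 0.32.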

How the data were processed

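The deposited tables hold raw read counts per microRNA gene on mm10 with annotation M4, per the files that accompany them. The sources used here name neither an aligner nor a counter. Of the 3 unnamed count columns, the first equals the sum of the others, and the second, taken as the gene's strand, was used. Left out were the 4 rows without a gene, with 51.5% of all reads in replicate 2 and 55.2% in replicate 1. Symbols and positions came from GENCODE M21 (1894 of 1973 rows matched) and arms from RefSeq (GRCm38.p6); no genome was searched.

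CPM used all reads on the gene's strand. A count of 0 allows up to 3 reads, 0.421 CPM in replicate 2 and 0.564 CPM in replicate 1. Intervals cover counting error only. TMM factors were 1.05 in replicate 2 and 0.952 in replicate 1. The edgeR quasi-likelihood test has no residual degrees of freedom here, so the binomial test was used. The binomial test was tried on simulated counts without any spread between libraries, so its calls under such a spread were not checked. The edgeR exact test was tried on changes larger than those of the members, simulated with the coefficient it was given. The genes most like the members were the 2 non-members nearest to the highest gene of each cluster, each list is represented by its highest gene, and the copy pairs by the widest and the narrowest. Members and lists were chosen with earlier results of these data known. Tools were R 4.3.3, edgeR 4.0.16, DESeq2 1.42.0 and Python 3.11.15 with scipy 1.17.1.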

Additional observations from a re-analysis of the deposited data

How the results depend on the processing

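Of 85 values recomputed under alternatives, 54 kept their direction and side of the threshold, stayed within the replicate SD or, for counts of genes, within a set fold. Some of these could not come out otherwise. Leaving out either replicate always moves a mean by less than the SD. Counting either strand cannot change the cluster folds, as no read fell opposite to a member. Taking the highest gene of each cluster in place of the sum lowered the log2 ratio of Mir181c/d to 1.59 over Mir181a-1/b-1 and to 2.41 over Mir181a-2/b-2. Leaving out either replicate gave 2.23 to 2.53 and 2.84 to 3.35 for these ratios, -1.12 to -0.31 for Mir181a-2/b-2 over Mir181a-1/b-1, and 8764 to 9345 CPM for the family. With library totals Mir181c turned to 0.039 and passed, Mir181d passed at 0.16, and 193 of 455 genes passed, against 153. With DESeq2 size factors Mir181d turned to -0.00066. In the edgeR exact test with a BCV of 0.2 or the estimated one, Mir181a-1 (-0.37), Mir181b-1 (0.57), Mir181b-2 (0.51) and Mir181c (-0.10) kept their ratios and no longer passed, so that 0 members and 3 or 4 genes passed. This test allows for a spread between pools, which the binomial test does not. The estimated BCV was taken from the same libraries that it compares, so few genes could pass with it. No paired analysis was possible because the series holds 1 group. Reads on either strand and dropping the filter on low counts changed no call among the members. Depth limits Mir181b-1 most.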
